A study of Homo sapiens with 8 samples.

Results

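The genes described here encode the nuclear subunits of oxidative phosphorylation. They were chosen by symbol: every gene of the supplied probe annotation whose symbol begins with NDUFA, NDUFB, NDUFC, NDUFS or NDUFV and a number, UQCR, COX4 to COX8 or ATP5, together with the SDH subunit genes. The rule took 78 of the 17687 named genes on the arrays: 32 of complex I, 3 of complex II, 8 of complex III, 17 of complex IV and 18 of complex V. It used no measured value, but was chosen with earlier results of these data known. A few of the symbols are not those of a subunit: NDUFV1-DT is a noncoding transcript, ATP5MF-PTCD1 a readthrough, UQCRHL and ATP5MGL are copies of subunit genes, ATP5IF1 encodes the inhibitor of ATP synthase, and COX7A2L a factor that joins complexes III and IV into supercomplexes.

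RNA came from K562 and KBM5, established human chronic myeloid leukaemia cell lines. Such cells grow on the signal of BCR-ABL1, a fused kinase blocked by imatinib (IM). In each line the cells received OR21 at 100 nM for 3 days followed by IM at 1000 nM, with RNA taken 24 hours later (combination), IM at 1000 nM alone for 24 hours, OR21 at 100 nM alone, or neither drug (control). By the series title, OR21 (OR-2100) is a demethylating agent. Its dose in the combination comes from the treatment protocol, as the sample label leaves it blank. Each of these 8 groups was 1 array, each line stands for 1 culture model of the disease, and the labels name no separate cultures. No group was repeated, so p-values do not measure the spread between repeats. Over both lines they rest on how far effects differed between the lines. In the fit per line they rest on how far the drugs departed from additive effects, pooled over both lines. Both fits also draw each gene's spread toward that of all genes. The prior from all genes had 8.31 degrees of freedom against 2 residual ones in the fit per line. Over both lines it had 3.77 against 3. Technical spread between arrays cannot be told apart from these.

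Oxidative phosphorylation takes place in the inner mitochondrial membrane. Complex I oxidises NADH and complex II succinate, complex III passes their electrons to cytochrome c, and complex IV hands them to oxygen. Complexes I, III and IV pump protons as they do so, and complex V, the ATP synthase, lets the protons back to make ATP. Complex II is wholly encoded in the nucleus. The other complexes also hold subunits made from mitochondrial DNA, and none of the 13 mitochondrial genes looked for is named in the annotation.

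The values are linear intensities as the authors deposited them, compared on the log2 scale with limma. An array's background is the 95th percentile of its 612 negative controls, between 161 and 263. Of the 78 genes, 66 were above background on all 8 arrays and are called detected here, against 4660 of all 17687. On no array above it were NDUFV1-DT, ATP5MF-PTCD1, ATP5MGL and the tissue-restricted complex IV isoform genes COX4I2, COX6B2, COX7A1, COX7B2 and COX8C. The remaining 4 passed on some arrays: NDUFB6 on 7, NDUFA8 on 6, COX6A2, the heart and muscle isoform, on 5, and NDUFS7 on 3. The effect of IM in a line is the mean of 2 array pairs, combination against OR21 and IM against control; a gene is called at a Benjamini-Hochberg adjusted p under 0.05 over all 17687 genes. Where a group is above background on only some arrays, a fold is not exact. In RNA from whole cultures, fewer cells of a type and less RNA per cell cannot be told apart.

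Lineage markers differed between the lines, whose labels name no lineage. Of 8 myeloid markers, 6 to 8 were above background on the KBM5 arrays, with summed intensity between 73239 and 349096, against 1 or 2 on the K562 arrays. Of 7 erythroid markers, 1 (TFRC, the transferrin receptor gene of dividing cells) was above background on the KBM5 arrays, with a sum between 1796.5 and 20016, against 6 or 7 on the K562 arrays, with a sum between 103502 and 733980; GATA1, KLF1 and the globin genes HBE1 and HBZ were at background on every KBM5 array. No more than 1 of 4 lymphoid markers passed on any array, and of 4 epithelial and stromal markers 0 or 1 passed on the KBM5 arrays, against 2 (EPCAM and COL1A2) on the K562 arrays.

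Promoters are shown for ATP5MC1, UQCRQ and NDUFA6, which had the 3 largest falls with IM in KBM5, and for ATP5MC2, which encodes the same mature protein as ATP5MC1, since factors that bind short motifs near the start site are known to control many genes of this family, among them NRF1, ETS factors such as GABPA, YY1, and MYC at the E-box. The sequences are RefSeq's, build GRCh38.p14, from 250 bases before to 50 bases after the gene's start, read along the gene's strand. Capitals mark a motif. ATP5MC1 and ATP5MC2 encode the same mature subunit c, the proton-carrying ring of ATP synthase, with different import signals. UQCRQ encodes a small subunit of complex III at the ubiquinone site, and NDUFA6 an accessory subunit of complex I that holds the mitochondrial acyl carrier protein.

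The ATP5MC1 window, chr17:48892537-48892836 on the plus strand, holds an E-box, CACGTG, 4 bases after the start.
ATP5MC1: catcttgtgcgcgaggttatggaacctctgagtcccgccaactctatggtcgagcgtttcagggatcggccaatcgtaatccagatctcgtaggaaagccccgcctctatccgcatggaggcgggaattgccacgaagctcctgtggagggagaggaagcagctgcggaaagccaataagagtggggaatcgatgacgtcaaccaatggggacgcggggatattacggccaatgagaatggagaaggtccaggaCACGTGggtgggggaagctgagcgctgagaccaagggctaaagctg
One of 3 ATP5MC2 windows, chr12:53676034-53676333 on the minus strand, holds the NRF1 core, GCATGCGC, 40 bases before the start; a second, overlapping window also holds it, on the other strand.
ATP5MC2: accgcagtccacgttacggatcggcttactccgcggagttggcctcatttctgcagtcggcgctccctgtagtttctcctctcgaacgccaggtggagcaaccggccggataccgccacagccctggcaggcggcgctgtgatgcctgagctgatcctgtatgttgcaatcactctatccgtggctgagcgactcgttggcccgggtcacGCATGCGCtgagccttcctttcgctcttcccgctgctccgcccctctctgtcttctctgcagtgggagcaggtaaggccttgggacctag
The UQCRQ window, chr5:132866392-132866691 on the plus strand, holds the ETS core, CCGGAAGT, 54 bases before the start.
UQCRQ: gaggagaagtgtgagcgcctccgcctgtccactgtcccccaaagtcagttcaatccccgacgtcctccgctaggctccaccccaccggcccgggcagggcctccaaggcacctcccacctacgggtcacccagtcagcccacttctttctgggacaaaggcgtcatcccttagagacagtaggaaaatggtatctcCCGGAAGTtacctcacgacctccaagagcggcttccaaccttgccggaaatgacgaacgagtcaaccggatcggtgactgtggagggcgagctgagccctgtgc
The NDUFA6 window, chr22:42090723-42091022 on the minus strand, holds the NRF1 core 166 bases before the start and the YY1 core, AAGATGGCG, 25 bases after it.
NDUFA6: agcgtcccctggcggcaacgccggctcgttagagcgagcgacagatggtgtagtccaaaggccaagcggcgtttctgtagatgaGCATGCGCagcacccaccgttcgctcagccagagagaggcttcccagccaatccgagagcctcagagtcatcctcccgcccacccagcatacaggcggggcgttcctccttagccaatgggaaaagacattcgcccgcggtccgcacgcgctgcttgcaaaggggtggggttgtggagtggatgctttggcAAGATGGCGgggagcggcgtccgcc

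RefSeq promoter entries were matched to 63 of the 78 genes. The motifs were searched on both strands, and none of the 4 contains another. The NRF1 core was in 13 of the 63 genes (20.6%), against 3.68% of all 27305 genes with an entry. The YY1 core was in 8 (12.7%), against 2.14%, the ETS core in 10 (15.9%), against 4.95%, and the E-box in 7 (11.1%), against 8.77%. Of the 24 genes with an entry that were called lower with IM in KBM5, 5 held the NRF1 core, 5 the ETS core, 4 the E-box and 4 the YY1 core. Among the other 39 the counts were 8, 5, 3 and 4. The 27305 genes go beyond those detected on the arrays, and no motif share was taken among detected genes. A gene with several windows counts if any of them holds the motif. A match describes these letters in this window and shows no binding.

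Most subunit genes were lower with IM in KBM5. Limma called 31 of the 78 lower and 0 higher, where 10.6% of all genes were called lower and 10.8% higher; at an unadjusted p under 0.05 there were 46 lower and 2 higher, and 2620 lower and 2945 higher of all genes. The median change was -0.63 over the 78 genes and 0.03 over all genes, on the log2 scale. Of the 66 detected genes, 49 were lower in both array pairs and 9 higher in both. The median log2 level of all detected genes was 10.38 and 10.27 with the combination and IM, against 10.47 and 10.45 with OR21 and in the control. Among all 4660 detected genes, 21.8% were called lower.

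Complex I had 16 of 32 genes called lower with IM in KBM5, complex IV 7 of 17, complex III 3 of 8, complex V 5 of 18 and complex II 0 of 3. Median log2 changes were -0.84, -0.70, -0.49, -0.54 and -0.51 in that order of complexes. These counts and medians include genes at background on every array, most of them in complex IV. Among detected genes, 21 of 28, 9 of 11, 4 of 8, 12 of 16 and 3 of 3 were lower in both array pairs, in the same order. Differences between complexes were not tested.

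**Figure D1:**
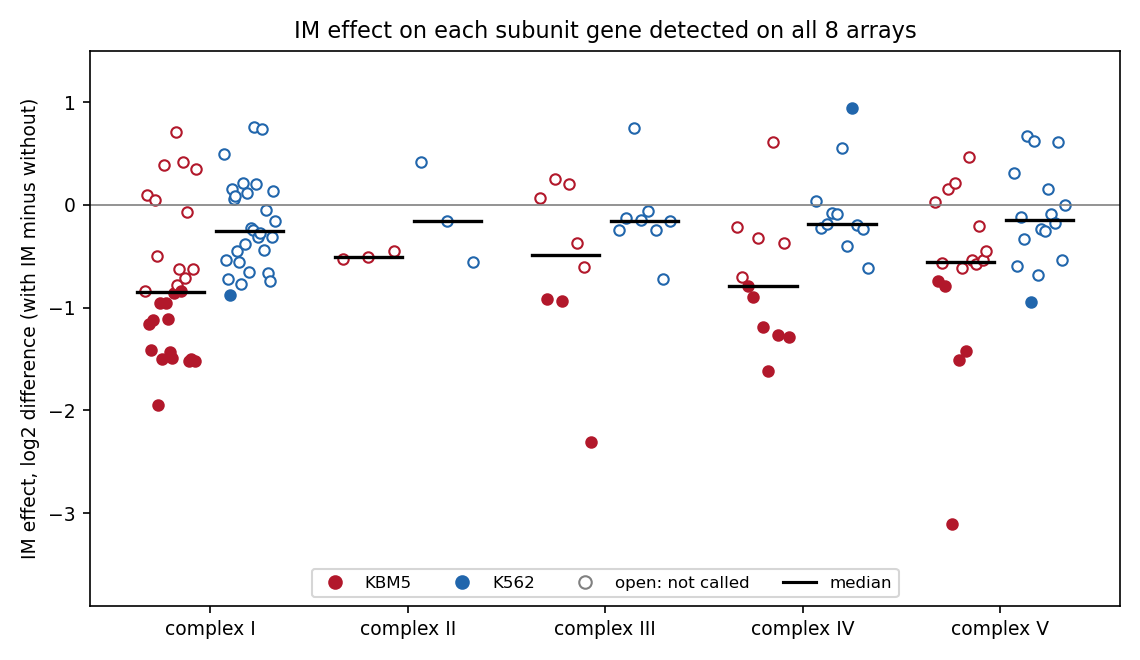
Effect of IM (log2 difference, with IM minus without) on each of the 66 subunit genes detected on all 8 arrays, by complex, KBM5 in red and K562 in blue. Filled points were called by limma and black bars are medians of the points; most KBM5 points lie below 0, with ATP5MC1 lowest at -3.10, and the K562 points spread around a median of -0.18.

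ATP5MC1 had the largest fall of the 78 genes. In KBM5 its intensity was 5147 with the combination and 1939.6 with IM, against 31174 with OR21 and 23581 in the control. In K562 it was 33202 with the combination and 27358 with IM, against 61579 with OR21 and 54912 in the control. In both lines the arrays with IM lay below those without it and did not overlap them. The fall, a mean of 2 pairs, was 3.10 ± 0.28 on the log2 scale in KBM5, or 8.58-fold (limma adjusted p = 3.9e-05). In K562 it was 0.95 ± 0.28 (adjusted p = 0.0482). Values after ± are limma's moderated standard errors. In the fit per line they pool both lines and borrow from all genes, so they are not the spread of the 2 pairs. The KBM5 pairs of ATP5MC1 were -3.60 and -2.60.

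The other genes for subunit c gave smaller changes; differences between these genes were not tested. ATP5MC3 had 2332 with the combination and 1899.7 with IM in KBM5, against 5919 with OR21 and 6106 in the control, and its log2 change was -1.51 ± 0.25 (adjusted p = 0.00143). In K562 it had 14107 with the combination and 12375 with IM, against 19246 with OR21 and 23501 in the control, and -0.69 ± 0.25 was not called (adjusted p = 0.0988). ATP5MC2 had 72161 and 65087 in KBM5 with the combination and IM, against 60226 and 58253 with OR21 and in the control. In K562 it had 94859.9 and 78289 with the combination and IM, against 63574 and 49508 with OR21 and in the control. The ATP5MC2 arrays with IM thus lay above those without it in both lines, with log2 changes of 0.21 ± 0.23 in KBM5 and 0.62 ± 0.23 in K562 that were not called (adjusted p = 0.616 and 0.11).

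**Figure D2:**
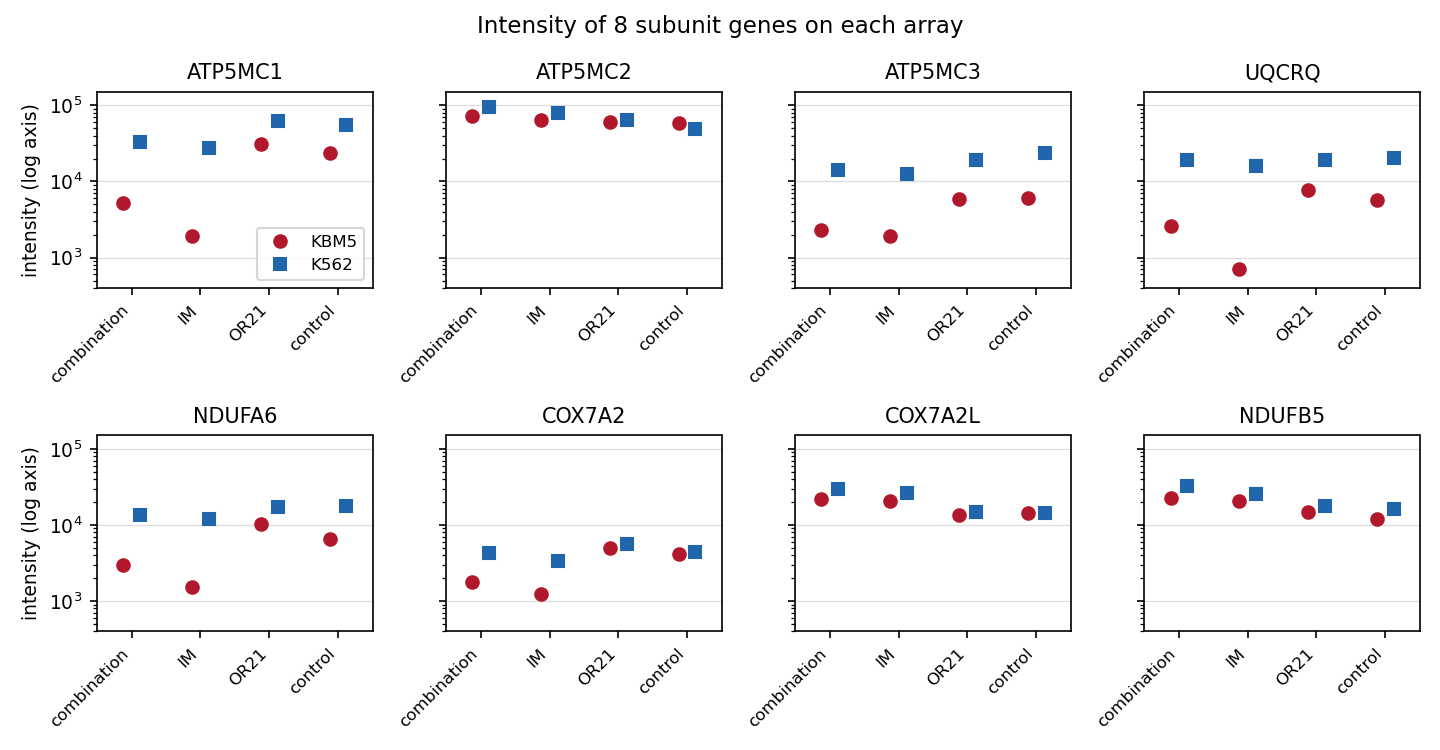
Intensity on each array (log axis) of 8 genes, with the treatments combination, IM, OR21 and control from left to right, KBM5 as red circles and K562 as blue squares, 1 array per point. Heights compare within a panel only; ATP5MC1, UQCRQ, NDUFA6 and COX7A2 are lowest on the KBM5 arrays with IM, and COX7A2L and NDUFB5 are higher with IM than without it in both lines.

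Of the remaining complex V genes, ATP5MF, subunit f of the membrane part, fell by 1.42 ± 0.24 in KBM5 (adjusted p = 0.002), and ATP5F1D, the delta subunit of the central stalk, by 0.78 ± 0.24 (adjusted p = 0.0376). ATP5F1B, the catalytic beta subunit, fell by 0.74 ± 0.23 (adjusted p = 0.0425). ATP5F1A, its partner alpha subunit, was not called, with 19254 and 21383 in KBM5 with the combination and IM, against 20048 and 19860.3 with OR21 and in the control. The ATP5F1B call was lost with quantile normalization (-0.50, limma adjusted p = 0.164). Neither ATP5F1B nor ATP5F1D stayed called when any 1 array was left out. The difference between ATP5F1A and ATP5F1B was not tested.

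In complex III, UQCRQ had 2569 with the combination and 698 with IM in KBM5, against 7634 with OR21 and 5747 in the control, a fall of 2.31 ± 0.33 (adjusted p = 0.000656). In K562 it had 19251 with the combination and 16197 with IM, against 19033 with OR21 and 20460.3 in the control, and the arrays with and without IM overlapped. UQCRC1, a core protein of the matrix side, fell in KBM5 by 0.94 ± 0.24 (adjusted p = 0.0178), and UQCR11, a small subunit, by 0.92 ± 0.27 (adjusted p = 0.0337). UQCRB, another ubiquinone-site subunit, was 27536 and 26327 in KBM5 with the combination and IM, against 27070.1 and 18933 with OR21 and in the control, and was not called.

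Complex I falls reached both arms of the enzyme. NDUFA6 had 2986 with the combination and 1518 with IM in KBM5, against 10356 with OR21 and 6545 in the control, and fell by 1.95 ± 0.24 (adjusted p = 0.000234). NDUFV2, an iron-sulfur core subunit of the NADH-oxidising tip, had 1482 and 1189 with the combination and IM, against 4537 and 3208 with OR21 and in the control, and fell by 1.52 ± 0.23 (adjusted p = 0.000983). NDUFS5, an accessory subunit on the intermembrane side, fell by 1.52 ± 0.25 (adjusted p = 0.00164). NDUFB6, of the proton-pumping arm, fell by 1.86 ± 0.25 (adjusted p = 0.000391), a size that is not exact, since its 162 with IM alone was below background. The other 12 genes called were NDUFA7, NDUFA9, NDUFA11, NDUFA12, NDUFA13, NDUFB2, NDUFB3, NDUFB4, NDUFB9, NDUFB10, NDUFB11 and NDUFS6, with log2 changes between -0.84 and -1.50.

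In complex IV, COX7A2, the widely expressed subunit 7a, had 1792 with the combination and 1226 with IM in KBM5, against 4958 with OR21 and 4186 in the control, and fell by 1.62 ± 0.23 (adjusted p = 0.000709). COX8A fell by 1.29 ± 0.25 (adjusted p = 0.00382), COX7B by 1.27 ± 0.24 (adjusted p = 0.00387) and COX6C by 1.19 ± 0.25 (adjusted p = 0.00662), all small subunits around the catalytic core. COX6A1 and COX5B fell by 0.90 ± 0.24 and 0.79 ± 0.24, and neither was called with quantile normalization (limma adjusted p = 0.0585 and 0.0574). COX8C was called too, but at background on every array, so its value is no measured level. COX6A2 had 203 and 308 in KBM5 with the combination and IM, against 201 and 218 with OR21 and in the control, and was not called.

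Complex II stood lower with IM in KBM5 without a call. SDHC and SDHD, the membrane anchors, and SDHA, the flavoprotein that oxidises succinate, had log2 changes between -0.52 and -0.45, with the lowest adjusted p at 0.175.

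In K562 fewer subunit genes were called, in both directions. Limma called 3 of 78 lower with IM and 1 higher, where 8.05% of all genes were called lower and 5.34% higher; the median change was -0.17. NDUFS7, the core subunit next to the ubiquinone site, had 233 and 171 with the combination and IM in K562, against 399 and 529 with OR21 and in the control, and fell by 1.20 ± 0.27 (adjusted p = 0.016), a size that is not exact, since 171 was below background. NDUFA12, an accessory subunit of the matrix arm, fell by 0.88 ± 0.26 (adjusted p = 0.0489), and ATP5MC1 as given above. COX7A2L rose by 0.95 ± 0.23 (adjusted p = 0.0223), with 29852 and 26581 with the combination and IM, against 14728 and 14485 with OR21 and in the control. The split depended on the scale: centring gave 8 higher and 1 lower, quantile normalization gave 6 higher (ATP5IF1, ATP5PD, COX7A2L, NDUFB5, NDUFC1 and UQCRB) and 1 lower (NDUFS7), and without any 1 K562 array 0 or 1 gene was called. Among all genes the split moved too: 60.8% of called genes were higher with centring and 46.7% with quantile normalization, against 39.9% as deposited.

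A test of the difference between the lines in their IM effect called 8 of 78 genes more negative in KBM5 and 0 less negative, where 4.9% and 5.25% of all genes were called. ATP5MC1 and UQCRQ differed by -2.15 ± 0.39 and -2.15 ± 0.46 (KBM5 minus K562, adjusted p = 0.00681 and 0.0156), COX6C by -1.74 ± 0.36, NDUFV2 by -1.65 ± 0.33, NDUFB6 by -1.54 ± 0.35, NDUFA6 by -1.50 ± 0.33, NDUFA13 by -1.27 ± 0.33 and COX7A2 by -1.22 ± 0.33. COX6C stood on opposite sides: in KBM5 it had 10897 and 6455 with the combination and IM, against 19869 and 18402 with OR21 and in the control, and in K562 it had 10386 and 9038 with the combination and IM, against 7517 and 5819 with OR21 and in the control. Its K562 change, 0.55, was not called. Without any 1 K562 array none of the 8 was called.

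Markers moved with IM in each line. Of 8 myeloid markers, 5 were called higher and 1 lower with IM in KBM5, where 10.8% of all genes were called higher and 10.6% lower. Those higher included LYZ, the lysozyme gene (log2 difference 3.47 ± 0.37), and CSF1R, the macrophage colony-stimulating factor receptor gene. CSF1R was above background only on the 2 KBM5 arrays with IM. The sum of the myeloid markers was 349096 and 348687 with the combination and IM, against 151975 and 73239 with OR21 and in the control. TFRC fell by 3.44 ± 0.25 in KBM5. In K562, 5 of 7 erythroid markers were called higher, where 5.34% of all genes were. ALAS2, the first enzyme of erythroid heme synthesis, led them (5.96 ± 0.57). The sum of the erythroid markers was 733980 and 679179 with the combination and IM, against 266532 and 103502 with OR21 and in the control. The part of the myeloid and erythroid markers in the subunit changes was not tested.

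Over both lines together, where the lines serve as repeats, 8 of 78 genes fell with IM and 2 rose, where 4.87% of all genes were called lower and 2.75% higher. The 8 were NDUFA12 (-1.14 ± 0.20, adjusted p = 0.0227), NDUFA9, NDUFS6, ATP5MC3, NDUFS5, NDUFB2, COX8A and NDUFA11, the last at -0.94 ± 0.20 (adjusted p = 0.0386). NDUFB5, an accessory subunit of the membrane arm, rose by 0.73 ± 0.16 (adjusted p = 0.0452), with 22970.1 and 20711 in KBM5 with the combination and IM, against 14991 and 11937 with OR21 and in the control. COX7A2L rose by 0.78 ± 0.17 (adjusted p = 0.0436), with 22042 and 20589 in KBM5 with the combination and IM, against 13599 and 14212 with OR21 and in the control. Both genes were higher with IM in 4 of 4 pairs, the pairs that the test averages. Quantile normalization left 4 calls (NDUFA12, COX8A, NDUFB5 and COX7A2L), and without any 1 array between 0 and 3 genes were called. ATP5MC1, at -2.02 ± 0.47 over both lines, missed the threshold (adjusted p = 0.0502).

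Other genes of the respiratory apparatus were read from lists of known function. Of 3 subunit or carrier genes outside the symbol rule, CYCS, cytochrome c, fell by 2.28 ± 0.25 with IM over both lines and NDUFAB1, the acyl carrier protein of complex I, by 1.43 ± 0.25; CYC1, cytochrome c1 of complex III, fell by 1.98 ± 0.25 in KBM5. Of 50 assembly factors, 11 fell and 2 rose over both lines, where 4.87% of all genes were called lower and 2.75% higher. They included NDUFAF4 (-2.29 ± 0.28) and NDUFAF2, a paralog of NDUFA12 (-1.60 ± 0.18, a size that is not exact, since NDUFAF2 was above background on 5 of 8 arrays). Of 24 genes of mitochondrial protein import and folding, 18 fell and 0 rose against the same shares of all genes, among them the chaperonin gene HSPE1 (-2.62 ± 0.39) and TIMM13, a small chaperone of the intermembrane space (-2.43 ± 0.17). In KBM5 19 of the 24 fell, where 10.6% of all genes were called lower, and in K562 18 fell, where 8.05% were. With 1 array left out, the assembly factors had 0 to 5 falls over both lines and the import genes 2 to 12, with 0 and 2 without the KBM5 OR21 array and 2 and 2 without the KBM5 IM array; the import genes had 14 to 18 falls in KBM5 and 4 to 18 in K562, the 4 without the K562 control or the K562 IM array.

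Of 12 genes for the upkeep and transcription of mitochondrial DNA, 4 fell over both lines and 0 rose, beside 4.87% and 2.75% of all genes: TFAM, which packages and transcribes it (-1.83 ± 0.21), TFB2M, TWNK and LONP1. Among 7 nuclear regulators, MYC fell by 2.31 ± 0.21 and PPRC1, a coactivator related to PGC-1, by 1.51 ± 0.22; PPRC1 was above background only on the 2 K562 arrays without IM, so its size is not exact. Of 5 carriers and channels, VDAC1, the outer-membrane channel, fell by 1.81 ± 0.34. Of 17 genes of the tricarboxylic acid cycle and pyruvate dehydrogenase, 3 fell and 0 rose, beside the same shares of all genes. One was DLAT (-1.86 ± 0.33), above background on 6 of 8 arrays, so that its size is not exact. With 1 array left out, the mitochondrial DNA list had 1 or 2 falls and the tricarboxylic acid list 0 or 1. IDH2, the mitochondrial NADP-dependent isocitrate dehydrogenase, fell by 0.99 ± 0.24 in KBM5 but rose by 1.43 ± 0.24 in K562, and the difference between the lines was called (-2.42 ± 0.34, adjusted p = 0.00173). In medians over both lines the import list changed by -1.40, the assembly factors by -0.51 and the subunit genes by -0.43, beside 0.06 for all genes.

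Most subunit genes had lower values in KBM5 than in K562. Over the 4 treatments limma called 49 of 78 genes lower in KBM5 and 0 higher, where 17% of all genes were called lower and 15% higher. The median difference was -0.996 over the 78 genes and 0.04 over all genes (log2, KBM5 minus K562). Of the 66 detected genes, 56 were lower in KBM5 in all 4 treatments and 2, ATP5F1A and UQCRB, were higher in all 4 without a call. Among all 4660 detected genes, 25.2% were called lower. Under each treatment apart, the median over the 66 was -1.21 with the combination, -1.45 with IM, -0.73 with OR21 and -0.99 in the controls.

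**Figure D3:**
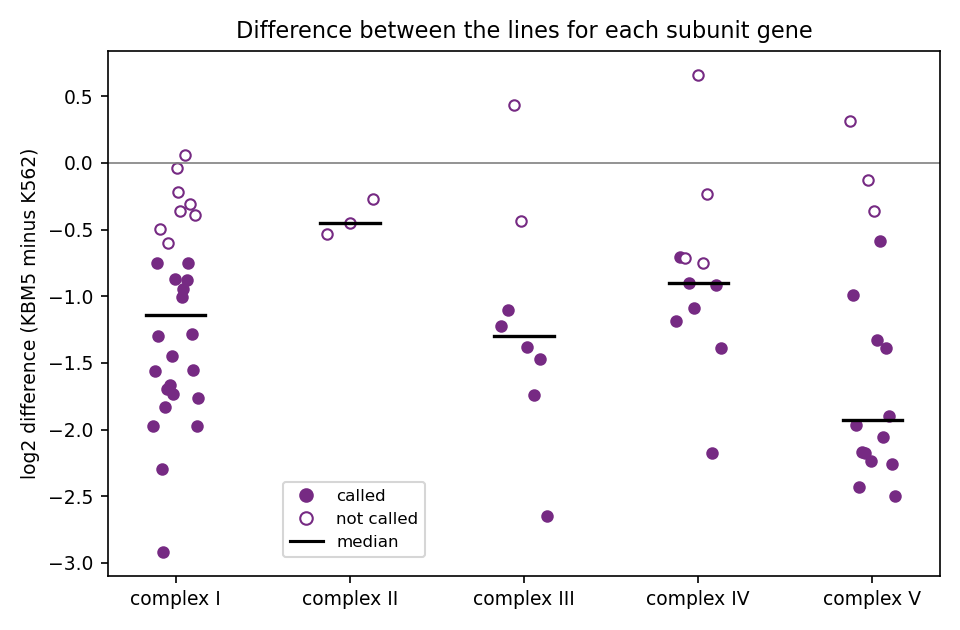
Difference between the lines (log2, KBM5 minus K562, mean of 4 treatments) for each of the 66 detected subunit genes by complex. Filled points were called by limma and black bars are medians of the points; 46 points are filled, all below 0, and no complex II gene is among them.

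Complex I had 23 of 32 genes called lower in KBM5 and complex II 0 of 3. Complex III had 6 of 8, complex IV 7 of 17 and complex V 13 of 18. Medians over all members were -1.29, -0.45, -1.30, -0.71 and -1.64 in that order. These counts and medians include genes at background on every array, most of them in complex IV. Among detected genes, 24 of 28, 2 of 3, 6 of 8, 10 of 11 and 14 of 16 were lower in all 4 treatments, in the same order. NDUFA5, an accessory subunit of the matrix arm, had 980.2, 1015, 1475 and 1339 in KBM5 with the combination, IM, OR21 and in the control, against 8935, 9491, 8637 and 8715 in K562. The lines did not overlap, and NDUFA5 was 7.55-fold lower in KBM5 (log2 difference -2.92 ± 0.20, adjusted p = 7.91e-05). NDUFA8, a disulfide-bonded subunit of the membrane arm, and NDUFA2, of the matrix arm, differed by -2.64 ± 0.21 and -2.30 ± 0.18 on that scale; NDUFA8 was above background on 2 of 4 KBM5 arrays, so its size is not exact. NDUFB6 differed by -2.34 ± 0.35 and was above background on 3 of 4 KBM5 arrays. NDUFS7, at background on all 4 KBM5 arrays, was at least 1.40-fold lower (adjusted p = 0.00462).

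In complex V, ATP5PO, the subunit that ties the peripheral stalk to the catalytic head, had 11635, 11665, 15796 and 16052 in KBM5 with the combination, IM, OR21 and in the control, against 82264, 71903, 79672 and 74395 in K562 (-2.50 ± 0.18, adjusted p = 0.00012). ATP5F1D of the central stalk differed by -2.43 ± 0.21 and ATP5PF of the peripheral stalk by -2.26 ± 0.18. The subunit c genes ATP5MC3 and ATP5MC1 differed by -2.24 ± 0.23 and -2.18 ± 0.47. ATP5F1B differed by -0.99 ± 0.18, and ATP5F1A was not called.

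In complex III, UQCRQ differed by -2.65 ± 0.50, and its 4 treatments ranged from -4.54 with IM to -1.32 with OR21. UQCRH, the hinge protein at the cytochrome c site, differed by -1.74 ± 0.19; the UQCRHL probe set followed (-1.47 ± 0.24), and as a copy of UQCRH it may share signal with it. In complex IV, COX7B differed by -2.17 ± 0.28, COX8A by -1.39 ± 0.22, COX4I1, the widely expressed regulatory subunit, by -1.19 ± 0.17 and COX6B1 by -1.09 ± 0.18. In complex II, SDHC was lower in KBM5 in 4 of 4 treatments without a call (-0.45 ± 0.18, adjusted p = 0.102). The erythroid markers were all 7 called lower in KBM5 and the myeloid markers all 8 higher, where 17% of all genes were called lower and 15% higher. The part of these markers in the subunit difference was not tested.

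OR21 changed no subunit gene past the test. Over both lines limma called 0 of 78 genes (0% of all genes; 3 subunit genes at an unadjusted p under 0.05, all higher, and 319 higher and 303 lower of all genes). In K562 it called 0 of 78 (0.0905% of all genes; at an unadjusted p under 0.05, 0 subunit genes, and 490 higher and 373 lower of all genes), and in KBM5 0 of 78 (0.543% of all genes; at an unadjusted p under 0.05, 15 subunit genes higher and 1 lower, and 1173 higher and 1047 lower of all genes). In KBM5 the values leaned upward: 42 of 66 detected genes were higher with OR21 in both pairs and 5 lower, with a median of 0.30 over the 78 genes and -0.03 over all genes. The median log2 level of all 4660 detected genes was 10.38 and 10.47 with the combination and OR21, against 10.27 and 10.45 with IM and in the control. Of the 8 myeloid markers, 2 rose with OR21 in KBM5. MPO, the myeloperoxidase gene, had 5282 and 11442 with the combination and OR21, against 35.9 and 65.8, both at background, with IM and in the control (adjusted p = 1.15e-06), and CTSG, the cathepsin G gene, rose by 2.40 ± 0.37 (adjusted p = 0.0247). Their part in the subunit values was not tested. Among the subunit genes, the lowest adjusted p was that of UQCR10, a small subunit of complex III, with 3033 and 2599 in KBM5 with the combination and OR21, against 1128 and 1206 with IM and in the control (1.27 ± 0.24, adjusted p = 0.0569). Moderation with an intensity trend called 8 genes higher: ATP5F1D, ATP5MC1, ATP5MF, COX5B, COX6A1, NDUFA6, NDUFB9 and UQCR10. Under that setting 84.0% of all called genes were higher, and the share of all genes called is not given here. The difference in OR21 effect between the lines called 0 of 78 (0.102% of all genes; at an unadjusted p under 0.05, 5 subunit genes above 0 and 1 below, and 707 above and 645 below of all genes).

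The combination was compared with IM and with the control over both lines; the 2 comparisons share the combination arrays. Against IM, limma called 0 of 78 genes (0% of all genes; at an unadjusted p under 0.05, 1 subunit gene higher, and 279 higher and 326 lower of all genes). Of 66 detected genes, 49 were higher with the combination than with IM in both lines and 4 lower in both. All 4660 detected genes had a median log2 level of 10.38 with the combination and 10.27 with IM in KBM5, against 10.45 in the control. In K562 it was 10.41 and 10.36, against 10.59. Such direction counts were not made over all detected genes. Against the control it called 0 of 78 (0.198% of all genes; at an unadjusted p under 0.05, 5 subunit genes higher and 9 lower, and 1345 higher and 1461 lower of all genes), and 35 of 66 were lower in both lines and 15 higher in both. A term for OR21 acting differently in the presence of IM called 0 of 78 genes (0% of all genes; at an unadjusted p under 0.05, 0 subunit genes, and 113 above 0 and 161 below of all genes).

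**Figure D4:**
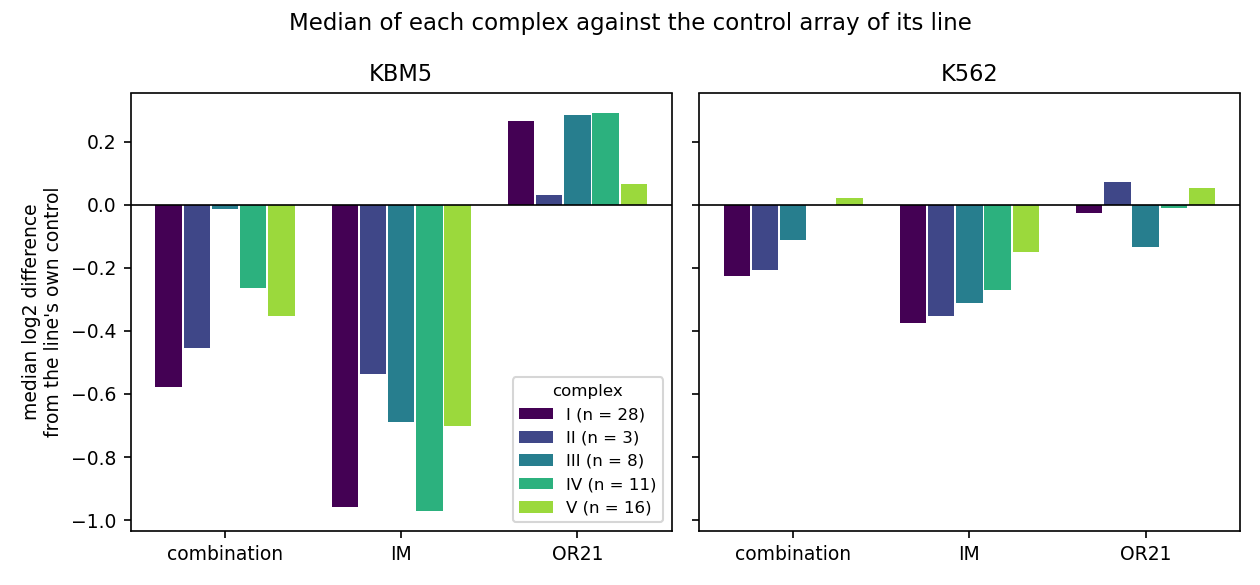
Median log2 difference of the detected genes of each complex from the control array of the same line, for the combination, IM and OR21 in KBM5 (left) and K562 (right). Bars have no error, since each treatment had 1 array. They are not adjusted for the shift of all detected genes, given in the text. In KBM5 complex I stands at -0.58 with the combination, -0.96 with IM and 0.27 with OR21.

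Against the KBM5 control, the median of the 66 detected genes was -0.45 with the combination, -0.79 with IM and 0.20 with OR21, with 48, 56 and 18 genes below the control. Complex IV stood at -0.27, -0.97 and 0.29, and complex III at -0.01, -0.69 and 0.28. Against the K562 control, the median was -0.08 with the combination, -0.28 with IM and -0.01 with OR21. Detected genes of all kinds shifted too. In K562 their median log2 level was 10.41 with the combination, 10.36 with IM and 10.56 with OR21, against 10.59 in the control. In KBM5 it was 10.38, 10.27 and 10.47, against 10.45 in the control. These medians have no replicate check.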

How the data were processed

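RNA of K562 and KBM5 cells was hybridised to 8 arrays, 1 per line and treatment. The table deposited by the authors holds 1 linear intensity per probe set (24351), and no source used here gives the software or normalization behind it. The supplied annotation names 17687 genes; for 20 genes with several probe sets, the brightest was used. Intensities were analysed as log2 values with no further normalization. Limma 3.58.1 (R 4.3.3) fitted line plus treatment (3 residual degrees of freedom), and per line a baseline, an OR21 term and an IM term (2 residual degrees of freedom), where the array pairs with and without the other drug serve as repeats. Each of 12 contrasts had its p-values adjusted (Benjamini-Hochberg) over the 17687 genes. The fits were tested on simulated data. The number of arrays limits the precision.

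All called genes were named where a contrast had 10 or fewer; otherwise up to 4 per complex and direction with the largest change moving one way in every pair, the genes called against the majority, the isoform genes and the subunit c genes; per list, up to 4 called genes. Of 171 list genes looked for, 141 were measured. The members and lists were chosen with earlier results of these data known, and other called genes are given as ranges or counts. Alternatives were quantile normalization, centring on the median of genes above background, the brighter genes alone, robust moderation with an intensity trend, averaging a gene's probe sets, log2(value + 16), leaving out each array, and both-lines effects from the per-line fit. The same alternatives for 4 functional lists were added after seeing the data.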

Additional observations from a re-analysis of the deposited data

Results flagged for a closer look

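The IM effect differed between the lines for 8 subunit genes by limma's test of the difference (adjusted p between 0.00681 and 0.0434; KBM5 minus K562, log2): ATP5MC1 -2.15, UQCRQ -2.15, COX6C -1.74, NDUFV2 -1.65, NDUFB6 -1.54, NDUFA6 -1.50, NDUFA13 -1.27 and COX7A2 -1.22. All 8 were more negative in KBM5, where 4.9% of all genes were called more negative and 5.25% less negative. Without any 1 K562 array, none of these 8 was called. In both matched comparisons, combination against OR21 and IM against control, the KBM5 change lay below the K562 change for each of the 8. The test averages these comparisons, so this follows largely from the call and adds no support. NDUFB6 was above background on 3 of 4 KBM5 arrays. The markers of the lines moved with IM too, as given above, and their part was not tested.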

How the results depend on the processing

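The fall with IM in KBM5 (31 genes) had 23 (centring) to 42 (intensity trend) genes called lower under the 6 alternatives other than left-out arrays, and 20 to 25 with 1 array left out; the lowest, 20, came without the KBM5 control or the KBM5 IM array, and 15 genes were called under every alternative, among them ATP5MC1, UQCRQ, NDUFA6 and COX7A2. These 6 alternatives also called 0 to 3 genes higher there; with quantile normalization and with centring these were COX7A2L and NDUFB5. The KBM5 against K562 difference (49 genes) had 39 to 47 calls with an array left out and 38 genes called throughout. Less stable was the IM effect in both lines (10 genes): 4 with quantile normalization, 4 with centring, 31 from the per-line fit, and 0 to 3 with any array left out. The IM effect in K562 (4 genes) had 7 calls with quantile normalization, 9 with centring, 12 among brighter genes, 19 with the intensity trend and 13 with log2(value + 16), and 0 to 11 with an array left out (0 or 1 without a K562 array, 11 without a KBM5 array). The difference in IM effect between the lines (8 genes) had 18 with the intensity trend and 0 to 11 with an array left out (0 without any 1 K562 array). OR21 in KBM5 had 8 with the intensity trend and 0 to 1 with an array left out, the 1 coming without the KBM5 control or the KBM5 OR21 array. The cause was not tested. These counts stand without the share of all genes called under each alternative, so they do not compare the subunit genes with all genes. Centring put the median of all genes at 0.22 with IM in both lines, 0.26 in K562 and 0.16 in KBM5, against 0.06, 0.07 and 0.03 as deposited, and moved the share of all called genes that were higher to 59.4%, 60.8% and 60.5%, against 36.1%, 39.9% and 50.6%. The direction of no named called gene reversed; the K562 median with IM, with no test, was 0.02 after centring, against -0.17 as deposited. Each line and treatment had 1 array, so there were no replicates to pair within a group. Both models match arrays by line and treatment. Genes near background, such as NDUFS7 and NDUFA8, have folds limited by it.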

Other observations

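Ribosomal protein genes were added for comparison after the values had been seen. The 47 cytosolic ribosomal protein genes, which build the ribosomes of the cytoplasm, had a median log2 change of 0.23 with IM in KBM5 and 0.18 in K562, and 41 and 38 of them were above 0. The 74 mitochondrial ribosomal protein genes, whose products translate the mitochondrially encoded subunits, had medians of -0.93 in KBM5 and -0.66 in K562, with 70 and 67 below 0. Between the lines (KBM5 minus K562), the cytosolic genes had a median of -0.02 and the mitochondrial ones of -0.90.

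The array also holds 10 transcript clusters without a gene name whose identifiers carry an M where others carry the chromosome. For named clusters these characters matched the RefSeq chromosome in 17692 of 17699 cases. Their median log2 difference was 0.30 between KBM5 and K562, with 9 of 10 above 0, and 0.04 with IM in KBM5, within -0.08 and 0.32. With OR21 in KBM5, 9 of 10 were above 0, with a median of 0.15.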
